A study of Homo sapiens with 39 samples.

Results

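The 10 genes described here belong to the system by which cells make and use glutathione and answer oxidants. They are the mu class glutathione transferase genes GSTM1, GSTM2, GSTM3 and GSTM4, the pi class gene GSTP1, the genes NQO1, HMOX1 and TXNRD1, and the genes GCLM and GCLC. They were taken by name from the 23710 gene symbols of each of 5 tables, and all 10 were present in every table. The list was chosen by name with earlier results in view, and selected on the log2 fold changes of GSTM1, far below 0 in both CHP-134 mutant clones. The GSTM1 values of those 2 comparisons are therefore a description with no test.

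RNA sequencing compared cells with altered levels of TRIM37, a RING-type ubiquitin ligase, in 2 human cell lines. RPE1 (hTERT-RPE1) is a retinal pigment epithelial line immortalised with telomerase. CHP-134 comes from a neuroblastoma. The RPE1 groups without a transgene were 9 libraries of untreated wild type cells and 9 of untreated cells with a TRIM37 knockout, for which no clone is named. The wild type titles number 3 sets of 3 and the knockout titles run from 1 to 9. What a set stands for is not said, so if libraries of a set share a source, the knockout q values are too small. The CHP-134 groups, all untreated, were 3 wild type libraries and 3 of each of 2 clones, clone 1 and clone 2, labelled as partial TRIM37 knockouts. Both CHP-134 clones were compared with the same 3 wild type libraries. The rest were 2 RPE1 clones with TetOn-TRIM37, a doxycycline-inducible transgene, called TetOn clone 4 and TetOn clone 5. Each had 3 untreated libraries and 3 treated with doxycycline at 1 µM for 24 h. Each of these CHP-134 and TetOn lines is 1 clone. No doxycycline-treated cells without the transgene were analysed here, so effects of the drug and of TRIM37 cannot be told apart in the TetOn comparisons.

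Each table gives the authors' comparison of the altered group with its control: a mean count over the libraries, a log2 fold change, the standard error of that change (SE) and an adjusted p-value named q. Genes with q under 0.05 are termed called. Values per library were not analysed here, so depth and the spread between libraries are unknown. Nothing in the sources used here says that replicates were separate cultures, so q may measure technical spread only. In the authors' deposited tables TRIM37 was at -1.95 in the RPE1 knockout, -1.66 and -1.75 in CHP-134 clones 1 and 2, and 3.19 and 2.64 in TetOn clones 4 and 5. These signs set the direction of each table. Of 14 neuroblastoma markers, 12 lay above the count limit in both CHP-134 tables and 2 to 3 in the RPE1 tables. The catecholamine enzyme markers TH and DBH lay below the limit in CHP-134. Of 7 pigment epithelium markers, RPE65, BEST1, RLBP1 and TYR lay below it in every RPE1 comparison. MITF and OTX2 lay above it in each, and PMEL in those of the knockout and TetOn clone 5. In CHP-134, 3 of the 7 lay above it. All 10 mesenchymal and epithelial RPE1 markers lay above the limit in RPE1. Of 8 Schwann cell and fibroblast markers, 2 to 5 lay above it in the 5 tables, with SOX10 and S100B below it in each. The part of such markers in the results was not tested.

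Glutathione is a small thiol peptide that glutathione transferases join to reactive compounds. Glutamate-cysteine ligase makes its precursor, with a catalytic subunit encoded by GCLC and a modifier subunit encoded by GCLM. NRF2, encoded by NFE2L2, is held low by KEAP1, which presents it to a cullin ligase for degradation. Oxidants and electrophiles release NRF2, which then pairs with small MAF proteins on antioxidant response elements. NQO1 (a quinone reductase), HMOX1 (haem oxygenase), TXNRD1 (thioredoxin reductase), GCLM and GCLC are among its best known targets. BACH1 competes for the same elements and holds HMOX1 low. The mu class genes lie side by side in one cluster, and GSTM1 is missing from the genome of many people.

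The GSTM1 promoter is shown with that of its paralog GSTM2, because these neighbours are close in sequence and parted in CHP-134. Each run is the 250 bases before the RefSeq gene start on GRCh38.p14, read 5′ to 3′ on the strand of the gene. Capitals mark TGACNNNGC, the core of the antioxidant response element, searched on both strands. GSTM1 is at chr1:109687567-109687816 on the plus strand and GSTM2 at chr1:109667807-109668056 on the plus strand.
GSTM1: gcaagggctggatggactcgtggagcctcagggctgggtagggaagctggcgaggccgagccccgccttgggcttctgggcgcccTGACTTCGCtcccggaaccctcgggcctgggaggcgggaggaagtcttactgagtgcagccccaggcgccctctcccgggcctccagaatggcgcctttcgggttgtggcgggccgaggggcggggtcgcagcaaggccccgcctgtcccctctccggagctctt
GSTM2: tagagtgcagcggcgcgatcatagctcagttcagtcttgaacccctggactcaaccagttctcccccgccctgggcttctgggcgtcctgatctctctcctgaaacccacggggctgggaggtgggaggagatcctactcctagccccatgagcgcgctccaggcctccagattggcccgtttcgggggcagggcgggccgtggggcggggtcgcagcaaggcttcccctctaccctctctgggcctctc
The motif lies 156 bases before the start of GSTM1 and was not found in this window of GSTM2. In a global alignment the GSTM1 window had 185 bases identical to GSTM2 and 221 identical to GSTM5.

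The other matches among the members are shown in windows of 30 bases, on GRCh38.p14 and with the motif in capitals. GSTP1 is at chr11:67583735-67583764 (plus strand) and GCLM at chr1:93909446-93909475 (minus strand). TXNRD1 has 2 starts, with windows at chr12:104215669-104215698 and chr12:104286919-104286948, both on the plus strand.
GSTP1: ggccggcgccgTGACTCAGCactggggcgg
GCLM: ctacgatttctGCTTAGTCAttgtcttcca
TXNRD1, first start: tacacgggctaTGACTTCGCtgttgtcacc
TXNRD1, second start: agtggatttctGCTTTGTCAttctgactct
GCLM and the second TXNRD1 start hold the motif on the opposite strand. GSTM1 and the first TXNRD1 start hold the same 9 letters, TGACTTCGC. In all, 4 of 9 members with an entry hold the motif at a start, against 13.2% of 27305 genes in the RefSeq table. HMOX1 has no entry. GSTM2, GSTM3, GSTM4, NQO1 and GCLC have no match in this window. A match describes letters only.

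GSTM1 was far lower in both CHP-134 mutant clones. The log2 fold change per the authors' deposited tables was -3.36 (SE 0.246) in clone 1 and -3.29 (SE 0.251) in clone 2, or 0.097 and 0.102 of the wild type level. Its mean count over the 6 libraries was 54.3 in the clone 1 comparison and 59.6 in the clone 2 comparison of the authors' deposited tables. With equal group sizes, these values imply group means of about 99 in wild type and 9.64 in clone 1, and of about 108 and 11.1 in the clone 2 comparison. The implied means of both clones thus lay near 10, the limit that the tables set on the mean count over both groups. If the authors' fold changes of low genes were drawn towards 0, the clone levels would be lower than implied here. The implied wild type mean in the second table was 1.093 times that in the first. Over 10126 genes the median ratio was 1.064, with quartiles of 1.062 and 1.065. GSTM1 lay outside these quartiles although the wild type libraries were the same, so its implied means are approximate.

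**Figure D1:**
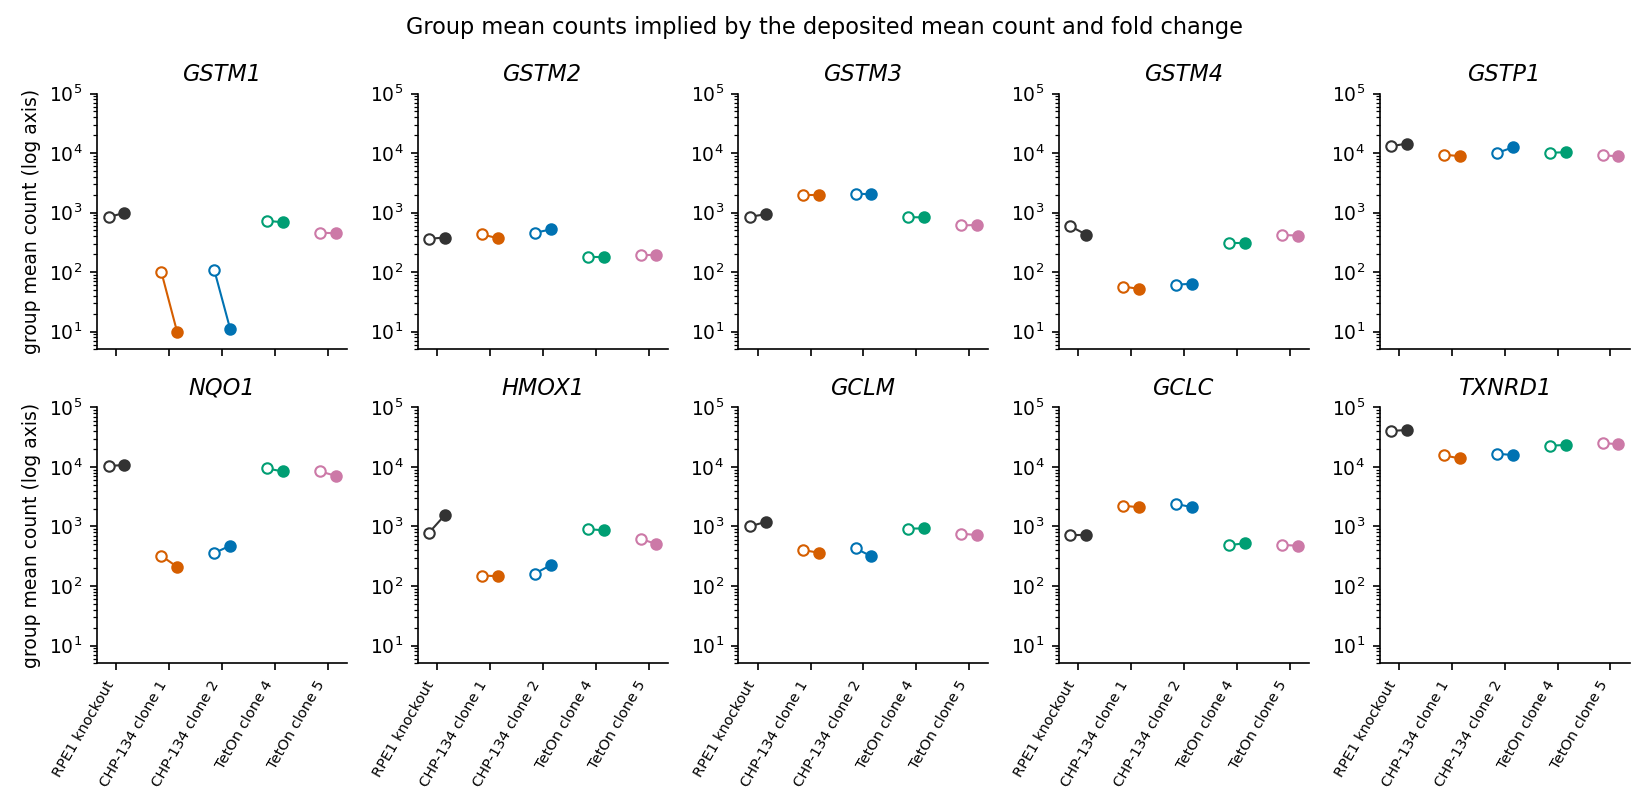
Group mean counts of the 10 members, implied by the mean count and fold change of each table, on a log axis; open points are control groups and filled points the altered groups. GSTM1 drops from 99 to 9.64 and from 108 to 11.1 in the CHP-134 clones, while its 3 RPE1 pairs lie between 448 and 981. Tables were scaled separately.

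In RPE1 cells GSTM1 stood at a higher level and moved little. In the knockout it rose by 0.22 (SE 0.0516, q = 7.99e-05) per the authors' deposited table. With doxycycline it was at -0.080 (SE 0.0583, q = 0.753) in TetOn clone 4 and at -0.032 (SE 0.0729, q = 0.96) in clone 5 per the authors' deposited tables. Mean counts per the authors' deposited tables were 912 in the knockout comparison, 705 in TetOn clone 4 and 453 in TetOn clone 5. The tables were scaled separately, with a median mean count over 10284 shared genes between 783 and 1220, so the order of levels across tables is a description.

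GSTM2, GSTM3 and GSTM4 did not share the GSTM1 fold change in the CHP-134 clones. GSTM4, GSTM2, GSTM1, GSTM5 and GSTM3 stand in that order in RefSeq. GSTM5 lay below the count limit in all 5 tables. In CHP-134 clones 1 and 2 GSTM4 was at -0.13 (q = 0.689) and 0.053 (q = 0.843), and GSTM3 at 0.0046 (q = 0.962) and -0.040 (q = 0.481) per the authors' deposited tables. Per the authors' deposited tables GSTM2 was called in both clones but in opposite directions, -0.22 (SE 0.0796, q = 0.0362) in clone 1 and 0.18 (SE 0.0759, q = 0.0381) in clone 2. Neither GSTM2 call held at an adjusted p under 0.01 or with the statistics rescaled to their own spread. With the median of chromosome 1 subtracted the clone 1 call ended and the clone 2 call held.

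Genes on both sides of the cluster lay close to 0 too. Of the 5 nearest measured genes on each side, 0 were called up and 1 down in clone 1, where the calls made up 18.7% of all genes tested. In clone 2 there was 1 called up and 1 down, against 46.2% of all genes. GNAI3, a G protein subunit gene, was called down in clone 1 (-0.135, q = 0.0388) per the authors' deposited table. In clone 2 ATXN7L2 was called up (0.39, q = 0.00115) and AHCYL1 down (-0.13, q = 0.0248) per the authors' deposited table. The 10 neighbours ranged from -0.45 to 0.14 in clone 1 and from -0.13 to 0.60 in clone 2. The end of each range farthest from 0 was CSF1, a macrophage growth factor gene with a mean count of 13 and 24.7 per the authors' deposited tables. None of these 10 neighbours came near the GSTM1 value.

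**Figure D2:**
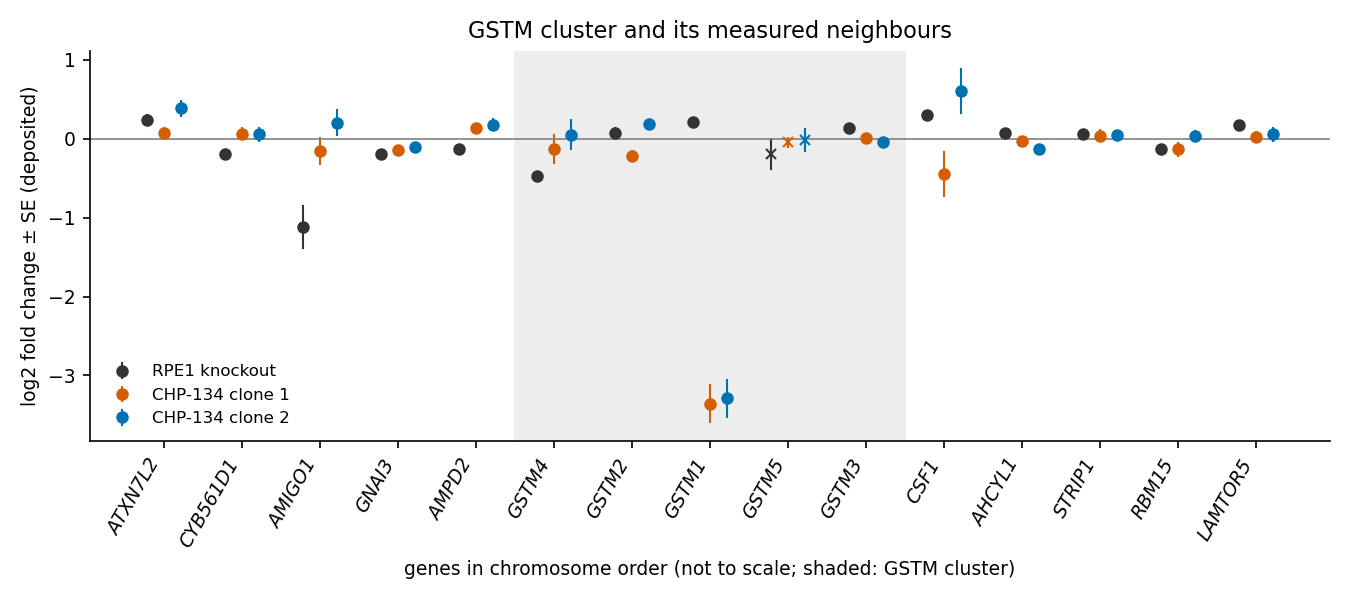
Log2 fold change with its SE for the GSTM cluster (shaded) and the 5 measured genes on each side, in chromosome order, in the RPE1 knockout and both CHP-134 clones; crosses mark GSTM5, below the count limit. In CHP-134 only GSTM1 lies near -3, and all other genes drawn lie between -0.45 and 0.60.

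Paralog sequence limits what these counts can separate. In GENCODE v29 transcripts, 49.7% of the 50-base stretches of GSTM1 also occur in other GSTM transcripts, most of them in GSTM2. At 100 bases the share was 29.1%. For GSTM4 it was 15.5% and 6.47%, and for GSTM3 0 of 4920 stretches of 50 bases were shared. Neither the read length nor the counting of shared reads is given in the sources used here. Reads of GSTM2, which had a mean count of 399 and 488 per the authors' deposited CHP-134 tables, and the low GSTM1 level left in the clones cannot be told apart where they share sequence.

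The genes with the profile nearest to GSTM1 over the 5 comparisons were CD44, NLRP1, LRRTM2, FOXJ2 and ZFPM2, among 10284 genes measured in every table. Likeness was the Euclidean distance of the 5 log2 fold changes, and it was 1.488 for CD44, the hyaluronan receptor gene. CD44 was at -2.58 and -4.54 in the CHP-134 clones and at 0.365 in the knockout per the authors' deposited tables. It is also 1 of the 10 mesenchymal and epithelial RPE1 markers, with mean counts of 71.3 and 70.4 in CHP-134 and of 29100 to 42600 in RPE1 per the authors' deposited tables. Of that list, 0 were called up and 2 down of 6 tested in clone 1, where 18.7% of all genes were called. In clone 2, where 46.2% were called, 1 was called up and 2 down of 6. The list's summed level, implied as above, was 16300 in wild type and 16600 in clone 1, and 17400 and 17200 in the clone 2 comparison. KRT8 and KRT18 of this list lay below the count limit in CHP-134. The part of such cells in the GSTM1 values was not tested. NLRP1, an inflammasome sensor gene, followed at 1.798, with -1.74 and -2.69 in the clones per the authors' deposited tables. LRRTM2, FOXJ2 and ZFPM2 lay at 2.31, 2.353 and 2.875. In the comparisons of CHP-134 clones 1 and 2, NLRP1 had mean counts of 13.2 and 13 per the authors' deposited tables. LRRTM2 had 12.4 and 12 and FOXJ2 11.1 and 12.3, so these genes lay just above the count limit there. ZFPM2 had 412 and 285 per the authors' deposited tables. The 2 CHP-134 comparisons share their wild type libraries and dominate this distance.

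GSTM4 was the one member that fell in the RPE1 knockout. It changed by -0.47 (SE 0.061, q = 6.92e-14) per the authors' deposited table, from an implied group mean of 588 to 424. GSTM3, which is expressed in many tissues, rose by 0.14 (SE 0.054, q = 0.0179) and GSTM2 was at 0.072 (SE 0.0728, q = 0.419) per the authors' deposited table. With doxycycline, GSTM2, GSTM3 and GSTM4 were not called in either TetOn clone. Their 6 log2 fold changes lay between -0.036 and 0.036 per the authors' deposited tables, each smaller than its SE. GSTM4 had a mean count of 54.5 and 62.4 in CHP-134 and of 307 to 506 in RPE1 per the authors' deposited tables. GSTM3 went the other way, with 1950 and 2050 in CHP-134 and 612 to 892 in RPE1 per the authors' deposited tables.

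GSTP1 was similar in level in all tables, with mean counts from 8980 to 13700 per the authors' deposited tables. It rose in the RPE1 knockout by 0.14 (SE 0.0225, q = 2.77e-09) and in CHP-134 clone 2 by 0.31 (SE 0.0758, q = 0.000173) per the authors' deposited tables. In CHP-134 clone 1 it was at -0.081 (SE 0.0731, q = 0.491) per the authors' deposited table. In TetOn clones 4 and 5 it was at 0.023 (q = 0.961) and -0.055 (q = 0.778) per the authors' deposited tables.

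NQO1 was the one member called in both TetOn clones, and it fell in each. It changed by -0.17 (SE 0.0414, q = 0.00445) in clone 4 and by -0.25 (SE 0.038, q = 1.45e-08) in clone 5 per the authors' deposited tables. The implied group means went from 9440 to 8400 in clone 4 and from 8420 to 7100 in clone 5. These clones share no library. Of 11778 genes measured in both, 77 were called down in both, 0.654% of them. No minimum fold change was set, and at least 1.5-fold neither call held. In the RPE1 knockout NQO1 was at 0.052 (SE 0.0456, q = 0.343) per the authors' deposited table.

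NQO1 was far less abundant in CHP-134. Its mean count was 265 and 417 per the authors' deposited CHP-134 tables, against 7760 to 10600 in those of RPE1. The authors' deposited tables set it aside with the Status Outlier in both CHP-134 comparisons, with a q of 1. The values left there are -0.615 (SE 0.218) in clone 1 and 0.41 (SE 0.2) in clone 2, per the authors' deposited tables. With outliers kept, it passed in clone 1 and not in clone 2. Which library stood apart cannot be read from these tables.

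HMOX1 showed the highest rise of the members in the RPE1 knockout. It rose by 0.985 (SE 0.0665, q printed as 0) per the authors' deposited table, from an implied group mean of 792 to 1570. It was the one member changed by at least 1.5-fold there, and the one called with the statistics rescaled to their own spread. In CHP-134 clone 2 it rose by 0.465 (SE 0.181, q = 0.025), and in clone 1 it was at -0.040 (SE 0.171, q = 0.908) per the authors' deposited tables. The clone 2 call ended with the median of chromosome 22, which was 0.15, subtracted. With doxycycline it fell in TetOn clone 5 to -0.30 (SE 0.0849, q = 0.0198) and was at -0.066 (SE 0.0758, q = 0.896) in clone 4 per the authors' deposited tables. The clone 5 call ended at an adjusted p under 0.01 and with rescaled statistics. Mean counts ran from 148 and 193 in CHP-134 to 563, 883 and 1180 in RPE1 per the authors' deposited tables.

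TXNRD1 was called up in the RPE1 knockout at 0.059 (SE 0.0223, q = 0.0175) per the authors' deposited table, a direction that turns with chromosome 12. Chromosome 12 as a whole stood above the rest of the genome here, with a median of 0.51 over 544 genes. With that median subtracted TXNRD1 was at -0.45 and called down. TXNRD1 was not called elsewhere, at -0.18 (q = 0.0841) and -0.080 (q = 0.359) in CHP-134 clones 1 and 2 per the authors' deposited tables. In TetOn clones 4 and 5 it was at 0.047 (q = 0.735) and -0.0695 (q = 0.0555) per the authors' deposited tables. With the median of chromosome 12 subtracted, TXNRD1 was at -0.084 in TetOn clone 5 and called down.

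The 2 subunit genes of glutamate-cysteine ligase parted in the RPE1 knockout. GCLM rose by 0.24 (SE 0.045, q = 6.44e-07) and GCLC was at 0.0087 (SE 0.0552, q = 0.909) per the authors' deposited table. In CHP-134 clone 2 both fell, GCLM to -0.44 (SE 0.158, q = 0.0147) and GCLC to -0.17 (SE 0.0653, q = 0.0229) per the authors' deposited table. In clone 1 they were at -0.15 (q = 0.546) and -0.097 (q = 0.325) per the authors' deposited table. The clone 2 call of GCLC ended with the median of chromosome 6 subtracted. Neither was called in the TetOn clones, where the 4 values lay between -0.092 and 0.095 per the authors' deposited tables. GCLC had mean counts of 2170 and 2250 in CHP-134 and of 483 to 719 in RPE1, while GCLM had 383 and 372 in CHP-134 and 738 to 1100 in RPE1, per the authors' deposited tables.

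**Figure D3:**
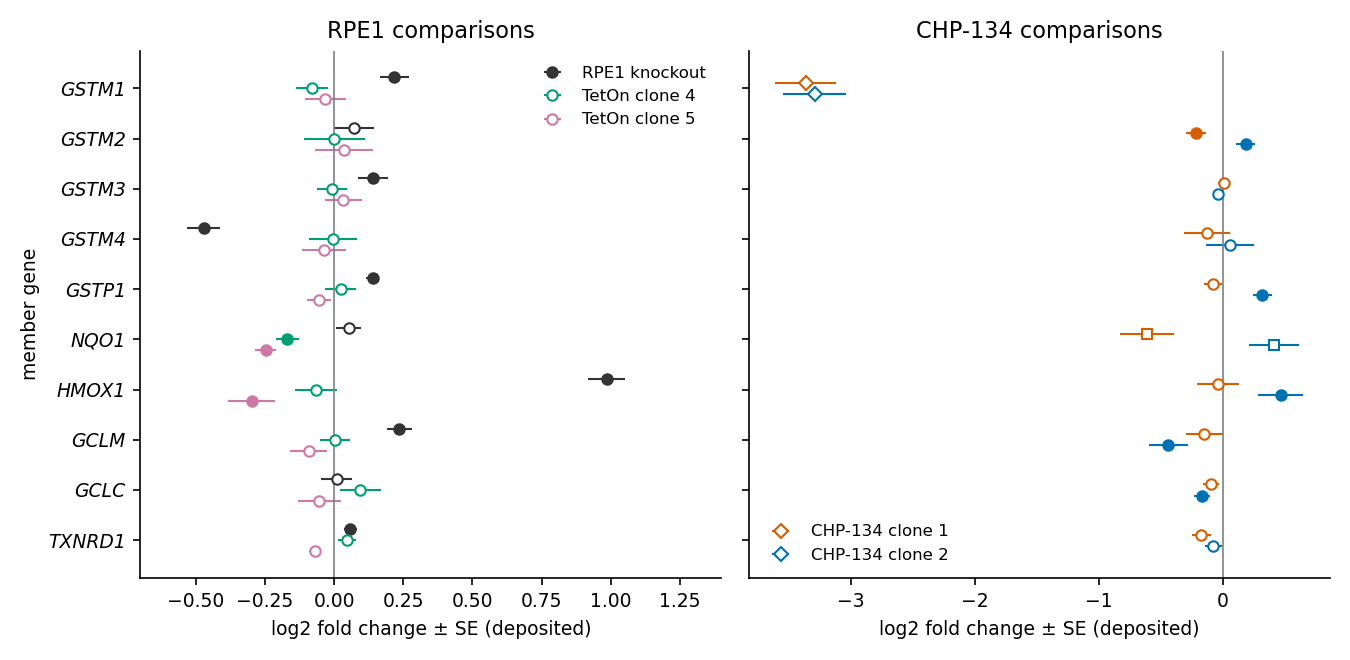
Log2 fold change with its SE for each member in the 3 RPE1 comparisons (left) and the 2 CHP-134 comparisons (right, wider axis); filled circles are called at a q under 0.05, squares are Outlier values and diamonds the GSTM1 values that chose the list. HMOX1 at 0.985 stands out in the knockout and GSTM1 at -3.36 and -3.29 in CHP-134.

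Counted together, 6 members were called up and 1 down of 10 in the RPE1 knockout. Of all 13002 genes tested there 53.6% were called, 26.6% up and 26.9% down. The members' median was 0.11, against -0.0022 over all genes tested. With a change of at least 1.5-fold, and likewise with rescaled statistics, 1 member was called. In CHP-134 clone 1, where 18.7% of genes were called, 9.60% up and 9.07% down, 2 of 9 measured members were called down. In clone 2, where 46.2% were called, 22.0% up and 24.2% down, 3 were called up and 3 down of 9. GSTM1 is among the members called down in both, and nothing is read from these counts. In TetOn clone 4, where 1.95% of genes were called (0.716% up and 1.23% down), 1 of 10 members was called, down. In TetOn clone 5, where 2.97% were called (0.795% up and 2.17% down), 2 of 10 were called, both down.

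The fold changes of separate comparisons were then set against each other for the members. Each CHP-134 mutant line is 1 clone, so differences between clones and effects of the TRIM37 mutation cannot be told apart. Between the CHP-134 clones, 20.5% of 12579 genes differed in a test of the difference of the 2 fold changes, 11.2% higher and 9.29% lower in clone 1. Of 8 members tested, 2 differed: GSTM2 by -0.40 (SE 0.11, adjusted p = 0.00251) and GSTP1 by -0.395 (SE 0.1053, adjusted p = 0.00169), both lower in clone 1. Shared wild type libraries make this test conservative. HMOX1 had a difference of -0.5049 (SE 0.249, adjusted p = 0.147), which did not pass. GSTM1, not tested, was at -0.07 for clone 1 minus clone 2, with an SE of 0.3514.

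Between the knockout and clone 1, 5 of 8 members differed (34.1% of all genes), each higher in the knockout. With chromosome medians subtracted 4 differed, 3 higher and 1 lower in the knockout, and TXNRD1 was the lower one, while the GCLM call ended. HMOX1 differed by 1.02 (adjusted p = 2.54e-07) and GCLM by 0.39 (adjusted p = 0.0431). Between the knockout and clone 2, 4 of 8 differed (46.5% of all genes). GCLM was higher in the knockout by 0.68 (adjusted p = 0.000169), HMOX1 by 0.52 (adjusted p = 0.0176) and GSTM3 by 0.18 (adjusted p = 0.0222), and GSTM4 had a difference of -0.53 (adjusted p = 0.0228). With rescaled statistics 0 members differed in either. These comparisons differ in cell line, in clone and in the extent of TRIM37 loss, which cannot be told apart. Between the TetOn clones 0 of 10 members differed by this test (0.221% of all genes), and 2 had an unadjusted p under 0.05. These were TXNRD1 at 0.12 (adjusted p = 0.339) and HMOX1 at 0.23 (adjusted p = 0.827).

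The rest of the system was read from 5 lists of 88 further genes, chosen with earlier results known. In the RPE1 knockout 26 of 75 measured genes were called up and 18 down, 58.7% against 53.6% of all genes. In CHP-134 clone 1 the counts were 7 up and 6 down of 66 (19.7% against 18.7%), and in clone 2 they were 18 up and 16 down of 69 (49.3% against 46.2%). These shares lie near those of all genes. With doxycycline the counts were 1 up and 1 down of 69 in TetOn clone 4 (2.9% against 1.95%), and 0 up and 5 down of 69 in clone 5 (7.25% against 2.97%).

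Among the regulators of NRF2, 4 were called up and 2 down of 10 in the knockout, or 60% against 53.6% of all genes. NFE2L2 itself rose by 0.16 (SE 0.0264, q = 1.12e-08), SQSTM1, which encodes an adaptor that binds KEAP1, by 0.24 (SE 0.0338, q = 1.03e-11) and the small MAF gene MAFF by 0.38 (SE 0.0548, q = 2.12e-11) per the authors' deposited table. MAFK fell by 0.265 (q = 2.72e-08) per the authors' deposited table. The counts were 1 up and 1 down of 10 in CHP-134 clone 1 (20% against 18.7%) and 2 up and 4 down of 10 in clone 2 (60% against 46.2%). NFE2L2 fell in both CHP-134 clones per the authors' deposited tables, at -0.125 (SE 0.0453, q = 0.0352) and -0.16 (SE 0.0629, q = 0.0281). The clone 1 call ended with chromosome medians subtracted (-0.080). In clone 1 MAFF rose by 0.62 (q = 0.00506) per the authors' deposited table. In clone 2 MAFG rose by 0.23 (q = 1.13e-07) and KEAP1 by 0.285 (q = 0.0105), and SQSTM1 fell by 0.25 (q = 0.00637) and CUL3 fell by 0.18 (q = 0.0106) per the authors' deposited table. Subtracting chromosome medians ended the clone 2 calls of KEAP1 (0.079), SQSTM1 (-0.145) and CUL3 (-0.090). NFE2L2 lies on the same chromosome as CUL3, so that subtraction moves its clone 2 value towards 0 by the same amount. The value left is about the size of its SE of 0.0629, so the clone 2 call of NFE2L2 would not hold either. SQSTM1 fell in both TetOn clones, to -0.17 (SE 0.0458, q = 0.0158) and -0.19 (SE 0.023, q = 4.46e-14) per the authors' deposited tables. MAFK rose in TetOn clone 4 by 0.24 (q = 0.00886) per the authors' deposited table.

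Other NRF2 targets went 9 up and 5 down of 24 in the knockout, 58.3% against 53.6% of all genes. The aldo-keto reductase genes AKR1C3 and AKR1C2 were at 4.32 (SE 0.196, q printed as 0) and 4.18 (SE 0.376, q = 1.44e-27) per the authors' deposited table. AKR1C1, named after its values were seen, was at 2.82 (SE 0.403, q = 1.7e-11) per the authors' deposited table. Their mean counts per the authors' deposited table were 196 for AKR1C3, 28.6 for AKR1C2 and 10.4 for AKR1C1. The implied wild type group means were 18.7, 2.99 and 2.58 in that order, so the rises of AKR1C2 and AKR1C1 start from a low level. In GENCODE v29, 28.6% of the 50-base stretches of AKR1C1 and 38.9% of those of AKR1C2 occur in other AKR1C transcripts, so their counts may share reads. AKR1C3 and AKR1C2 had mean counts of 104 and 122 in TetOn clone 5 but of 2.13 and 0.159 in clone 4 per the authors' deposited tables. AKR1C1 lay below the count limit in both TetOn clones, at 2.09 in clone 5 and 0.164 in clone 4 per the authors' deposited tables. Both are RPE1 clones without a TRIM37 knockout, and no clone is named for the knockout. All 3 were at 0 in both CHP-134 tables.

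Ferritin genes moved apart in the knockout, with the light chain gene FTL at -0.84 (SE 0.0142, q printed as 0) and the heavy chain gene FTH1 at 0.295 (SE 0.0446, q = 1.99e-10) per the authors' deposited table. UGDH, which makes the sugar donor for glucuronidation, fell by 0.29 (q = 3.06e-28) per the authors' deposited table. In CHP-134 clone 1, 0 were called up and 2 down of 17 (11.8% against 18.7% of all genes), EPHX1 (-0.32, q = 0.0246) and BLVRB (-0.43, q = 0.0128) per the authors' deposited table. The EPHX1 call ended with chromosome medians subtracted (-0.28). In clone 2, 4 were called up and 4 down of 18 (44.4% against 46.2%), among them the transporter gene ABCC4 (-0.36, q = 1.32e-10), CBR1 (0.42, q = 4.79e-07), PIR (-0.47, q = 9.1e-05) and FTL (-0.38, q = 0.000409) per the authors' deposited table. With chromosome medians subtracted ABCC4 was at -0.24 and FTL at -0.59, still called. In TetOn clone 4, 0 of 20 were called. In TetOn clone 5, 3 of 21 fell (14.3% against 2.97%), FTH1 to -0.19 (q = 2.82e-07), UGDH to -0.12 (q = 0.000345) and TKT to -0.12 (q = 0.0164) per the authors' deposited table.

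Among the other glutathione transferases GSTT1, a theta class gene that many people lack, stood out in CHP-134. It was at -2.03 (SE 0.266, q = 2.25e-12) in clone 1 and at 0.86 (SE 0.208, q = 0.000182) in clone 2 per the authors' deposited tables. The 2 fold changes differed by -2.89 (SE 0.3377, adjusted p = 6.57e-16). Its mean count was 35 and 97 per the authors' deposited CHP-134 tables and was listed at 0 in all 3 RPE1 tables. MGST1, a membrane-bound transferase gene, was at -0.42 (q = 0.0768) and 0.51 (q = 0.00226) in clones 1 and 2 per the authors' deposited tables. In the knockout 2 were called up and 3 down of 10 (50% against 53.6% of all genes), and in CHP-134 clone 1, 0 up and 1 down of 9 (11.1% against 18.7%). In the knockout MGST1 was at 0.33 (q = 1.38e-23), but lies on chromosome 12 and was at -0.18 with that chromosome's median subtracted. GSTA4 (-0.36, q = 7.07e-05), GSTZ1 (-0.315, q = 0.000121) and GSTO1 (0.13, q = 0.00197) were called per the authors' deposited table. With chromosome medians subtracted GSTO1 was at 0.22. In clone 2, 4 were called up and 1 down of 9 (55.6% against 46.2%), and GSTK1 rose by 0.26 (q = 0.000486) and GSTA4 fell by 0.17 (q = 0.00369) per the authors' deposited table. That GSTA4 call ended with chromosome medians subtracted (-0.088). With doxycycline 0 of 10 and 0 of 9 were called in TetOn clones 4 and 5.

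Genes of the glutathione cycle went 5 up and 4 down of 14 in the knockout, 64.3% against 53.6% of all genes. The counts were 4 up and 1 down of 14 in CHP-134 clone 1 (35.7% against 18.7%) and 4 up and 5 down of 15 in clone 2 (60% against 46.2%). GGT7, of the gamma-glutamyl transferase family, was at -0.42 (q = 3.38e-10) in the knockout and at 0.39 (q = 2.85e-05) and 0.61 (q = 1.28e-10) in the clones per the authors' deposited tables. CHAC1, which encodes an enzyme that breaks glutathione down, was at -0.425 (q = 0.000139) in the knockout and at 0.32 (q = 0.0494) and 0.67 (q = 1.75e-07) in the clones per the authors' deposited tables. GLO1, the glyoxalase gene, was at -0.24 (q = 4.72e-09) and -0.20 (q = 1.98e-07) in the clones per the authors' deposited tables. With chromosome medians subtracted GLO1 was at -0.11 in clone 2, still called. GGCT was at -0.18 (q = 8.86e-05) in the knockout and -0.27 (q = 4.31e-06) in clone 2, and GLRX5 at 0.24 (q = 3.15e-05) in the knockout and 0.20 (q = 0.0404) in clone 1, per the authors' deposited tables. In TetOn clones 4 and 5, 0 of 14 and 0 of 13 were called.

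**Figure D4:**
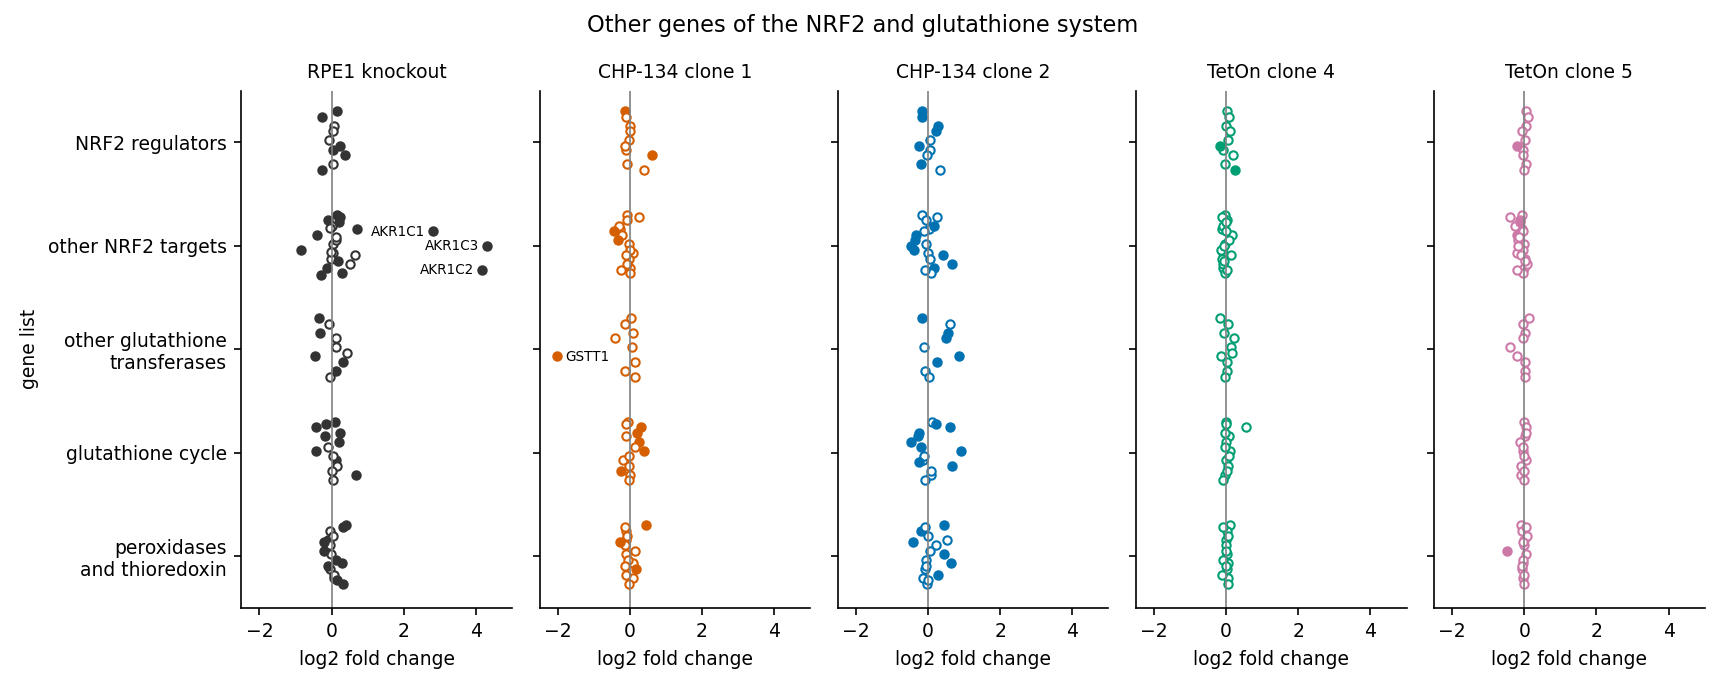
Log2 fold changes of measured genes in 5 lists of the NRF2 and glutathione system, 1 panel per comparison; filled points are called at a q under 0.05 and genes past 1 in size are named. AKR1C1, AKR1C2 and AKR1C3 lie at 2.82 to 4.32 in the knockout and GSTT1 at -2.03 in CHP-134 clone 1.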

How the data were processed

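The samples were 39 RNA sequencing libraries in 9 groups, as labelled. STAR and DESeq2 were run by the authors, per the submitters' processing notes; the sources used here give no versions, genome build, annotation or counting rule. The authors deposited 5 tables, 1 per comparison. Per the file headers each gives a Status, a mean count (used here as a signal of level, scaling not stated), a log2 fold change, its SE and a q value. Genes with a mean count of at most 10 carry the Status Low and were not tested. The SE of genes near 0 was small (median 0.0956 for mean counts up to 1 and 0.279 from 10 to 20 in the CHP-134 clone 1 table), so fold changes of low genes may have been drawn towards 0 by the authors.

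The main result is the authors' DESeq2 q under 0.05 as deposited. Group means were computed from the mean count and fold change with equal group sizes. Fold changes of 2 tables were compared as their difference divided by its SE (the square root of SE squared summed over both tables), with a two-sided normal p and Benjamini-Hochberg adjustment over all genes measured in both. This test was checked on simulated data. Its use between cell lines was added after the data were seen. The members and all gene lists were chosen with earlier results of these data known. Named genes are all members, TRIM37, up to 4 called genes per list and comparison with the highest ratio of fold change to SE, 5 measured neighbours on each side of the GSTM cluster and the 5 genes nearest to GSTM1. Not every gene that this rule names is printed.

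Chromosomes, gene order and promoters came from NCBI RefSeq on GRCh38.p14 by symbol, which matched 20900 genes. Promoter windows were aligned globally (match 1, mismatch -1, gap opening -2, extension -0.5). The motif was present in 10.9% of 35116 promoters of the same length. Transcript stretches came from GENCODE v29. Python 3.11.15 with numpy, pandas and scipy was used. Alternatives were an adjusted p under 0.01, a minimum change of 1.5-fold, a mean count of at least 100, outliers kept, chromosome medians subtracted (mean count of at least 100) and statistics rescaled to their median and median absolute deviation.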

Additional observations from a re-analysis of the deposited data

Results flagged for a closer look

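Some genes had fold changes that differed between comparisons by the test of the difference itself. Between CHP-134 clone 1 and clone 2 (clone 1 minus clone 2), GSTM2 differed by -0.40 and GSTP1 by -0.395. Among the other listed genes GSTT1 differed by -2.89, MGST1 by -0.93, EPHX1 by -0.56, PRDX2 by -0.35 and MAFG by -0.21. ABCC4 differed by 0.28, GLRX by 0.31, GSTA4 by 0.21 and SOD2 by 0.30. In all, 20.5% of genes differed there.

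Between the RPE1 knockout and CHP-134 clone 1 (knockout minus clone), HMOX1 differed by 1.02, GCLM by 0.39, GSTM2 by 0.29, TXNRD1 by 0.23 and GSTP1 by 0.22. There 34.1% of all genes differed. With chromosome medians subtracted TXNRD1 was lower in the knockout and the GCLM call ended. Between the knockout and clone 2, where 46.5% of all genes differed, GCLM differed by 0.68, HMOX1 by 0.52, GSTM3 by 0.18 and GSTM4 by -0.53. The cell line, the clone and the extent of TRIM37 loss cannot be told apart.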

How the results depend on the processing

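No paired analysis was possible because the tables hold no values per library, and leaving out each replicate was not run for the same reason. With a change of at least 1.5-fold, the members called were 1 in the RPE1 knockout, 1 in each CHP-134 clone and 0 in each TetOn clone (12.7%, 3.71%, 11.8%, 0.0658% and 0.0902% of all genes, in that order). The 1 in each CHP-134 clone was GSTM1, whose values chose the list, here and with rescaled statistics. Those that differed were 0 between the CHP-134 clones and 1 between the knockout and each CHP-134 clone. With rescaled statistics, 1 was called in the knockout, 1 in each CHP-134 clone and 1 in TetOn clone 5 (9.70%, 1.90%, 1.98% and 2.10% of all genes), and 0 differed between the CHP-134 clones or between the knockout and either. At an adjusted p under 0.01, 1 was called in CHP-134 clone 1, 2 in clone 2 and 1 in TetOn clone 5, and 1 differed between the knockout and each CHP-134 clone. In CHP-134 clone 1 the count was 1 at a mean count of at least 100, which leaves GSTM1 out, and 1 with chromosome medians subtracted. Other counts stayed within 1.5 times. That subtraction reversed TXNRD1 (-0.45) and MGST1 (-0.18) in the knockout, both on chromosome 12, and GSTM3 in CHP-134 clone 2 (0.0028), which was not called either way. The causes of these changes were not tested. Depth per library is unknown, so no limit from depth is given.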

Other observations

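GPX4, which encodes the glutathione peroxidase that reduces lipid peroxides, was called up in the knockout and in each CHP-134 clone, where 26.6%, 9.60% and 22.0% of all genes were. It was at 0.28 (SE 0.0463, q = 5.22e-09) in the RPE1 knockout, 0.44 (SE 0.0945, q = 8.12e-05) in CHP-134 clone 1 and 0.64 (SE 0.0902, q = 2.47e-11) in clone 2 per the authors' deposited tables. The CHP-134 comparisons share their controls. With rescaled statistics none of these 3 calls held, and at least 1.5-fold the clone 2 call alone did. GPX4 was set aside as an outlier in TetOn clone 4 and was at -0.090 (q = 0.508) in clone 5 per the authors' deposited tables. Of the list of peroxidases and thioredoxin genes, 6 were called up and 4 down of 17 in the knockout (58.8% against 53.6% of all genes), 2 up and 1 down of 16 in CHP-134 clone 1 (18.8% against 18.7%), and 4 up and 2 down of 17 in clone 2 (35.3% against 46.2%). In the knockout PRDX6 (0.30), TXNIP (0.30) and TXN (0.135) rose per the authors' deposited table. In clone 1 PRDX5 (0.18) rose and the catalase gene CAT (-0.28) fell, and in clone 2 PRDX2 (0.45) and GPX3 (0.45) rose and SOD2 (-0.42) fell, per the authors' deposited tables. With chromosome medians subtracted PRDX2 was at 0.24 in clone 2, still called. GPX4 lies on the same chromosome as PRDX2, so that subtraction lowers its clone 2 value by the same amount. TXNIP, which encodes an inhibitor of thioredoxin, was at -0.57 (SE 0.0837) in TetOn clone 4, where the Status Outlier left it untested, and fell by 0.48 (SE 0.0589, q = 1.76e-13) in clone 5 per the authors' deposited tables. In TetOn clone 4, 0 of 15 genes of the list were called, and in clone 5, 1 of 16.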
